A study of Homo sapiens with 6 samples.

Results

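The genes described here are 8 well-known long noncoding RNAs (lncRNAs): MALAT1, NEAT1, NORAD, OIP5-AS1, PVT1, KCNQ1OT1, H19 and SLC7A11-AS1. They were chosen by name, with earlier results of these data known, as 8 of 62710 gene rows, of which 18859 carried the lncRNA biotype. The cells were HCT116, a human colon cancer line, infected with lentivirus and selected with puromycin. The 3 sh-NC libraries came from cells with a scrambled control shRNA, and the 3 sh-IGF2BP3 libraries from cells with 1 shRNA against IGF2BP3, an RNA-binding protein that reads m6A marks and stabilizes its target RNAs. No other treatment was named for these samples, and the sources do not say whether the libraries of a group came from separate infections, so the spread between them may be technical.

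A lncRNA is a long transcript with no known protein product, and it can act where it is made, in the nucleus or in the cytoplasm. MALAT1 gathers in nuclear speckles beside splicing factors, and NEAT1 is the scaffold of paraspeckles. NORAD binds PUM2, a repressor of mRNAs, and OIP5-AS1 (Cyrano) carries a site that drives the decay of the microRNA miR-7. KCNQ1OT1 and H19 come from the imprinted region of chromosome 11, where KCNQ1OT1 silences its neighbours in cis. PVT1 lies in a region that is often amplified in cancer. SLC7A11-AS1 is transcribed against SLC7A11, the cystine importer that limits ferroptosis.

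Totals ran from 16146718 to 23576469 counts on genes per library. Mitochondrial genes took 6.12% to 7.76% of the counts in sh-NC and 5.24% to 5.89% in sh-IGF2BP3, and the 10 highest genes took 7.18% to 8.4% and 6.35% to 6.89%. The part of these differences in the results was not tested. IGF2BP3 itself had 90.3, 84.1 and 70.3 CPM (counts scaled to library size by TMM) in the sh-NC libraries 1, 2 and 3, against 60.2, 52.3 and 55.8 CPM in the sh-IGF2BP3 libraries 1, 2 and 3. The groups did not overlap, with a log2 fold change of −0.54 ± 0.181 (SE) and an edgeR adjusted p of 0.126. With each library's trend with GC content and length removed, it was −0.22 (adjusted p 0.68) and the groups overlapped. The 5 epithelial genes examined, EPCAM, CDH1, KRT8, KRT18 and KRT19, had 14.4 to 356 FPKM (counts scaled by the library's total and by gene length). Among 6 blood and stromal genes PTPRC, CD3E, CD68 and COL3A1 had at most 6 counts in any library. PECAM1 had 7 to 29 counts, and COL1A1 reached 6.51 FPKM.

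Of the 8 lncRNAs, 7 passed the filter on low counts and none met the study's thresholds, a fold change above 1.5 with an adjusted p under 0.05. Over all 16753 genes tested, edgeR's quasi-likelihood test called 0 genes (0%), while 3714 had an unadjusted p under 0.05, and DESeq2 called 696 genes (5.23% of those it gave an adjusted p) and edgeR without the filter 837 (2.30%), with none of the 7 among them. The lncRNAs with an unadjusted p under 0.05 were OIP5-AS1 and SLC7A11-AS1, both lower in sh-IGF2BP3, that is 2 of 7 beside 8.54% of all tested genes in that direction. The CPM of the groups did not overlap for NORAD, OIP5-AS1 and SLC7A11-AS1, lower in sh-IGF2BP3 in each, that is 3 of 7 beside 11.0% of all tested genes. SLC7A11-AS1, in both counts, lies opposite SLC7A11, which the study singled out partly from its RNA sequencing of these cells. Its counts may also include SLC7A11 reads, so neither number is independent of that gene. The median log2 fold change was −0.31 over the 7 lncRNAs, −0.14 over the 2576 tested lncRNA rows and −0.014 over all tested genes.

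The fold changes of all genes moved with the base composition of their transcripts. The 2030 tested genes with the lowest GC content had a median log2 fold change of −0.344, and the 2030 with the highest had 0.556. The 7 tested lncRNAs had a GC content of 38.4% to 52.2%, 6 of them below the 48.7% median of all tested genes, and a median of 41.6%. With each library's trend with GC content and length removed, the median was −0.057 over the 7, −0.13 over the lncRNA rows and 0.010 over all tested genes. GC content was known for all 7 but for only 2083 of the 2576 lncRNA rows. The other rows were left uncorrected, so the −0.13 is not fully comparable. With that trend removed, only SLC7A11-AS1 had an unadjusted p under 0.05, 1 of 7 beside 3.59% of all genes lower. It alone had groups that did not overlap, 1 of 7 beside 6.70% lower. The tie of SLC7A11-AS1 to SLC7A11 limits these counts as well. Whether this trend arose in the cells or in the libraries was not tested.

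**Figure D1:**
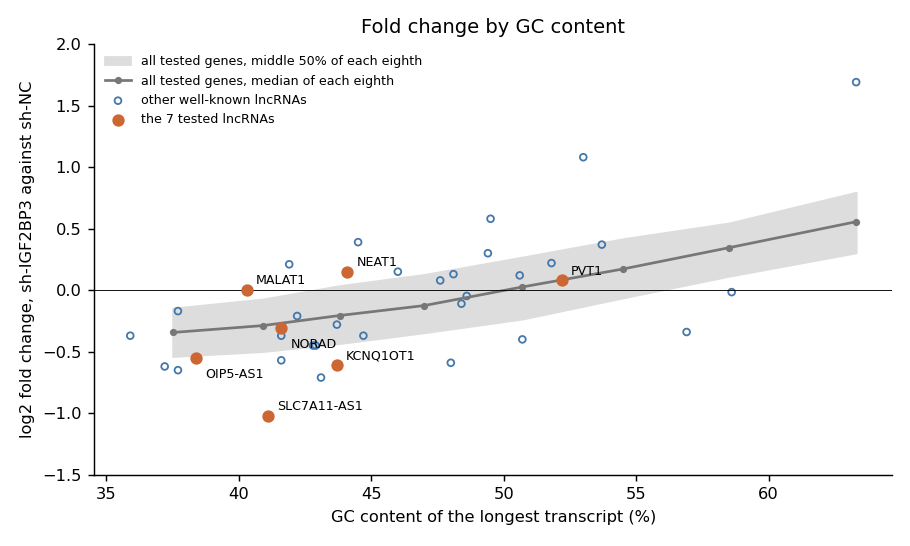
Log2 fold change (sh-IGF2BP3 against sh-NC) against the GC content of the longest transcript in percent. The line gives the median and the band the middle 50% of all tested genes in eighths by GC content, filled points the 7 tested lncRNAs and open points 30 other well-known lncRNAs. The line climbs from −0.344 to 0.556, NORAD lies close to it, and SLC7A11-AS1 at −1.02 lies farthest below it among the 7.

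The levels of the 8 lncRNAs, set side by side per length as FPKM, spanned from 57 to 0.134 FPKM on average over the 6 libraries. NORAD was highest at 57 ± 10.9 FPKM (SD, n = 6), rank 4 among all lncRNA rows, and NEAT1 followed at 29 ± 5.64 FPKM, rank 10. MALAT1 had 7.31 ± 2.25 FPKM, OIP5-AS1 4.19 ± 1.42 FPKM and PVT1 2.11 ± 0.156 FPKM. SLC7A11-AS1 had 0.487 ± 0.213 FPKM, KCNQ1OT1 0.171 ± 0.0607 FPKM and H19 0.134 ± 0.155 FPKM. NORAD and NEAT1, NEAT1 and MALAT1, OIP5-AS1 and PVT1, and PVT1 and SLC7A11-AS1 had ranges over the 6 libraries that did not meet. The ranges of MALAT1 and OIP5-AS1 overlapped, as did those of SLC7A11-AS1 and KCNQ1OT1, although the first of each pair was above the second in 6 of 6 libraries. KCNQ1OT1 was above H19 in 4 of 6 libraries. The length behind an FPKM value is the summed exon length of the gene, 91667 bases for KCNQ1OT1, so reads confined to a part of it give a low value. Whether RNAs with and without a poly(A) tail were captured alike in these libraries was not tested.

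**Figure D2:**
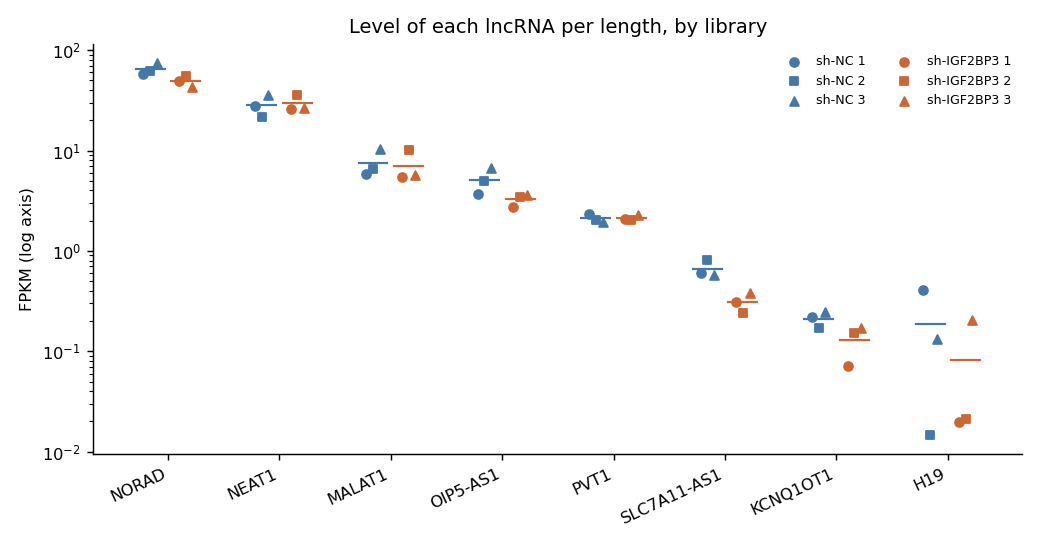
FPKM of each lncRNA (log axis) in each of the 6 libraries, blue for sh-NC and orange for sh-IGF2BP3, with a line at the mean of each group. The levels step down from NORAD at 43.4 to 75.1 FPKM to H19 at 0.0146 to 0.409 FPKM, and the groups lie apart for NORAD, OIP5-AS1 and SLC7A11-AS1.

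NEAT1 and MALAT1 are neighbours on chromosome 11 and are the lncRNAs of paraspeckles and speckles. NEAT1 (ENSG00000245532) lies at chr11:65422774-65445540 and MALAT1 (ENSG00000251562) at chr11:65497688-65506516, both on the plus strand of GRCh38. The longest GENCODE 29 transcript of each is a single exon, of 22743 and 8708 bases. The long form of each is known to be matured without a poly(A) tail, through cleavage behind a genome-encoded A-rich tract that folds into a triple helix. The tract is shown because it marks that end, with AAAAAGCAAAA, the longest stretch at the NEAT1 end that MALAT1 shares, in capitals.
MALAT1, chr11:65506077-65506116, plus strand: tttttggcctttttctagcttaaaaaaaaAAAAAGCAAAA
NEAT1, chr11:65445501-65445540, plus strand: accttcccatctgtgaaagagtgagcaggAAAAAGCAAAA
The stretch ends at the last base of the NEAT1 transcript and, in the second of 2 copies, at base 8355 of the MALAT1 transcript. It occurs on the transcript strand in 212 of the longest transcripts of 16236 tested genes (1.31%).

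NEAT1 had 666, 478 and 736 CPM in the sh-NC libraries 1, 2 and 3, against 595, 866 and 631 CPM in the sh-IGF2BP3 libraries 1, 2 and 3. The groups overlapped, with the lowest value in sh-NC 2 and the highest in sh-IGF2BP3 2. The means were 627 ± 134 and 697 ± 147 CPM (SD, n = 3 each), the log2 fold change was 0.15 ± 0.219 (SE) and the edgeR adjusted p was 0.705. MALAT1 had 54, 55.9 and 83.1 CPM in the sh-NC libraries 1, 2 and 3, against 48, 93.9 and 52 CPM in the sh-IGF2BP3 libraries 1, 2 and 3. Here too the groups overlapped, each holding a library well above the other pair. The means were 64.3 ± 16.3 and 64.6 ± 25.4 CPM, the log2 fold change was 0.005 ± 0.254 and the adjusted p was 0.991. Without sh-IGF2BP3 2, where both RNAs were highest, the log2 fold changes were −0.026 for NEAT1 and −0.36 for MALAT1. With the GC content and length trend removed they were 0.52 (unadjusted p 0.056, adjusted p 0.488) and 0.35 (adjusted p 0.615). Per length, NEAT1 stood above MALAT1 in every library, by a ratio of 4.78, 3.31 and 3.44 in sh-NC and of 4.8, 3.58 and 4.71 in sh-IGF2BP3.

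The genes listed with NEAT1 and MALAT1 did not meet the thresholds in the main fit either. Their RNA was measured, not their proteins. Of 10 paraspeckle genes tested, 2 had an unadjusted p under 0.05, both higher in sh-IGF2BP3, where 13.6% of all tested genes were higher at that p. They were DAZAP1, an RNA-binding protein (log2 fold change 0.45, adjusted p 0.181), and RBM14 (0.60, adjusted p 0.189). The genes of the core proteins NONO, SFPQ and PSPC1 had 0.19, 0.089 and 0.37, with adjusted p of 0.577, 0.817 and 0.368. Among 7 genes listed with MALAT1, the splicing factors SRSF2 (0.50, adjusted p 0.196) and SRSF3 (0.50, adjusted p 0.217) had an unadjusted p under 0.05. Without sh-NC 1, PSPC1 (0.68, adjusted p 0.0403), RBM14 (0.94, adjusted p 0.0109) and SRSF3 (0.73, adjusted p 0.0323) met the thresholds, where 1739 of the 17379 genes tested without that library were called higher. Without sh-NC 3 they had 0.13, 0.30 and 0.30, with adjusted p of 0.845, 0.596 and 0.601, and without sh-IGF2BP3 2 SRSF2 had 0.25 (adjusted p 0.659). After removal of the GC content and length trend, 3 of the 10 (DAZAP1, TARDBP and NUDT21) and 3 of the 7 (SRSF2, SRSF3 and HNRNPC) were higher at that p, beside 6.86% of all tested genes, while RBM14 had 0.32 (unadjusted p 0.279).

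NORAD (ENSG00000260032) lies on chromosome 20 at chr20:36045618-36051018, minus strand, and its only GENCODE 29 transcript is a single exon of 5339 bases. It is known as a decoy for PUM2 through many copies of the Pumilio element, TGTANATA. On the transcript strand 15 copies were found, counting overlapping ones, between bases 761 and 4606: 10 read TGTATATA, while 4 read TGTAAATA and the other read TGTACATA. None of the 3272 other tested transcripts of 0.8 to 1.2 times its length held as many, and 41.9% held any. The copies are shown with 8 bases on each side for 4 of the elements, the element in capitals.
NORAD, chr20:36049806-36049829, minus strand: cactactgTGTATATAgttgacaa
NORAD, chr20:36049705-36049728, minus strand: tcacatttTGTAAATAcctttttg
NORAD, chr20:36049495-36049518, minus strand: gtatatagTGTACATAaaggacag
NORAD, chr20:36047974-36047997, minus strand: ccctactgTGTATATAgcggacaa

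NORAD had 324, 324 and 371 CPM in the sh-NC libraries 1, 2 and 3, against 267, 313 and 242 CPM in the sh-IGF2BP3 libraries 1, 2 and 3. All 3 sh-IGF2BP3 values lay under the lowest sh-NC value, sh-IGF2BP3 2 the closest to it. The means were 340 ± 27.3 and 274 ± 36 CPM (SD, n = 3 each), a ratio of 0.807, and the exact permutation p was 0.1, the smallest that 3 against 3 libraries allow. The log2 fold change was −0.31 ± 0.186 (SE) with an edgeR adjusted p of 0.338. With the GC content and length trend removed it was −0.057 and the groups overlapped. PUM2, which NORAD binds, had 203, 232 and 248 CPM in the sh-NC libraries, against 137, 177 and 215 CPM in the sh-IGF2BP3 libraries, so that its groups overlapped, with a log2 fold change of −0.37 and an adjusted p of 0.295. It was −0.077 with the trend removed and −0.21 without sh-IGF2BP3 1. The other genes listed with NORAD, the RNA-binding proteins KHDRBS1 and RBMX, had 0.37 (adjusted p 0.273) and 0.19 (adjusted p 0.673), with all sh-IGF2BP3 libraries above the sh-NC ones for KHDRBS1, and the median of the 3 was 0.19.

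OIP5-AS1 (ENSG00000247556) lies at chr15:41283958-41322392, plus strand, and its longest GENCODE 29 transcript has 4 exons and 8829 bases. It is known for a long and nearly complete match to miR-7 that leads to the decay of this microRNA. The match to the miR-7-5p seed (bases 2 to 8), GTCTTCC, occurs 3 times on the transcript strand, a count reached by 4.36% of 1238 tested transcripts of 0.8 to 1.2 times its length. The mature microRNA, from RefSeq, is shown with its seed in capitals, and the 3 sites with the seed match in capitals.
hsa-miR-7-5p: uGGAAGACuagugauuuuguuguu
OIP5-AS1, chr15:41298413-41298436, plus strand: agggtttaaaaaaaatGTCTTCCa
OIP5-AS1, chr15:41300576-41300599, plus strand: caacaaaatcaccaatGTCTTCCa
OIP5-AS1, chr15:41305856-41305879, plus strand: atcctgaatatagtttGTCTTCCc
Laid against the reverse complement of the microRNA with no gap, the 3 sites matched at 13, 13 and 14 of 24 bases, the seed included. Within the 20 bases before the seed match, the second site has an unbroken run of 14 bases that matches the rest of the microRNA. The run begins before the first base printed for that site and is offset from the seed match by unpaired bases. The longest such runs at the other sites are 5 and 3 bases. A match in letters is a description, and the level of miR-7 is not analysed here.

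OIP5-AS1 had 85.4, 109 and 137 CPM in the sh-NC libraries 1, 2 and 3, against 61, 81.6 and 83.9 CPM in the sh-IGF2BP3 libraries 1, 2 and 3. The groups did not overlap, but sh-NC 1 stood only just above sh-IGF2BP3 3. The means were 110 ± 25.6 and 75.5 ± 12.6 CPM (SD, n = 3 each), a ratio of 0.684, with an exact permutation p of 0.1. The log2 fold change was −0.55 ± 0.21 (SE), with an unadjusted p of 0.0189 and an edgeR adjusted p of 0.154. Without sh-NC 1 it was −0.70 with an adjusted p of 0.0258, the only setting tried in which any of the 7 lncRNAs met the thresholds. In that setting 5.67% of 17379 tested genes were called lower and 15.7% in either direction. Without sh-NC 3 it was −0.39 with an adjusted p of 0.488. With the GC content and length trend removed it was −0.065. Its GC content, 38.4%, was the lowest of the 7.

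The gene opposite, OIP5, which encodes a protein needed to load histone at centromeres, had few counts. It had 1.07, 0.454 and 0.613 CPM in the sh-NC libraries 1, 2 and 3, against 2.8, 4.51 and 0.681 CPM in the sh-IGF2BP3 libraries 1, 2 and 3. Thus sh-IGF2BP3 1 and 2 were above every sh-NC library and sh-IGF2BP3 3 was within their range, with a log2 fold change of 1.91 ± 0.574 and an adjusted p of 0.116. Without sh-IGF2BP3 3, where 1.31% of all tested genes were called, it was 2.35 with an adjusted p of 0.035, and without sh-NC 1 it was 2.31 with an adjusted p of 0.0172. Without sh-IGF2BP3 2 it was 1.31 with an adjusted p of 0.436, and limma on log2(FPKM + 1) gave 0.85 with an adjusted p of 0.205. The exons of both genes share 470 bases in GENCODE 29, on opposite strands. The sources do not say whether counting used strand, so reads in these bases may be assigned to either gene.

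The promoters of NORAD and OIP5-AS1 are shown because these lncRNAs, both lower in every sh-IGF2BP3 library, have a RefSeq entry (GRCh38.p14) from 250 bases before to 50 bases after the start. With the GC content and length trend removed their log2 fold changes were −0.057 and −0.065, and the groups overlapped. Capitals mark 4 motifs searched on both strands: the E-box CACGTG, then the box known as CCAAT, then the GC box GGGCGG and last the TATA box, TATAAA.
NORAD, chr20:36050911-36051210, minus strand: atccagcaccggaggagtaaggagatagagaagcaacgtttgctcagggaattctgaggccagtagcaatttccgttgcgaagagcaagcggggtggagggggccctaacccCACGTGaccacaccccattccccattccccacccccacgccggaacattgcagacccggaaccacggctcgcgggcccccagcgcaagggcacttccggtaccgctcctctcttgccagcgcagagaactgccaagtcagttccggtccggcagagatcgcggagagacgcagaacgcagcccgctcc
OIP5-AS1, chr15:41283740-41284039, plus strand: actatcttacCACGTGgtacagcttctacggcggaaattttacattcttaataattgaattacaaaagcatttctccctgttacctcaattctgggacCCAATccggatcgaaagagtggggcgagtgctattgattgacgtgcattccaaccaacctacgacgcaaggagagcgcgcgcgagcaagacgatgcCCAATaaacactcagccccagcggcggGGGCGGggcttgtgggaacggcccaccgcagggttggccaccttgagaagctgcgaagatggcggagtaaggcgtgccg
Each window holds 1 copy of CACGTG, the palindromic E-box, which 7.26% of 35116 promoter windows hold. The OIP5-AS1 window also holds 2 copies of CCAAT, found in 34.6% of windows, and 1 of GGGCGG, found in 45% of windows. The window of MALAT1 at its upstream start holds 5 copies of GGGCGG, and its other window holds 1 of TATAAA. That of H19 holds none of the 4 motifs.

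KCNQ1OT1 (ENSG00000269821) is transcribed against the KCNQ1 potassium channel gene and lies wholly inside it, at chr11:2608328-2699994, minus strand, as 1 unspliced exon of 91667 bases. From the allele that carries it, it is known to silence CDKN1C, a cell cycle inhibitor, and other neighbours. It had 20.8, 15.2 and 20.7 CPM in the sh-NC libraries 1, 2 and 3, against 6.46, 14.6 and 16.2 CPM in the sh-IGF2BP3 libraries 1, 2 and 3. The library sh-IGF2BP3 1, with 113 counts, was far below the others, and sh-IGF2BP3 3 was above the lowest sh-NC value. The means were 18.9 ± 3.18 and 12.4 ± 5.23 CPM (SD, n = 3 each), the log2 fold change was −0.61 ± 0.301 (SE), and the edgeR adjusted p was 0.249. Without sh-IGF2BP3 1 it was −0.29, and with the GC content and length trend removed it was −0.14.

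KCNQ1 had 8.86, 7.15 and 10.6 CPM in the sh-NC libraries 1, 2 and 3, against 15.3, 8.63 and 8.18 CPM in the sh-IGF2BP3 libraries 1, 2 and 3. Its highest value was thus in the library where KCNQ1OT1 was lowest. The groups overlapped, with a log2 fold change of 0.27 ± 0.292 (SE) and an edgeR adjusted p of 0.601, and of −0.28 (adjusted p 0.663) with the trend removed. KCNQ1OT1 took 70.2%, 68.1% and 66.1% of the counts of the pair in sh-NC, and 29.7%, 62.8% and 66.5% in sh-IGF2BP3 1, 2 and 3. The 95% Wilson interval in sh-IGF2BP3 1 was 25.3% to 34.4%, clear of those of the other 5 libraries, and covers counting error only. The exact permutation p between the groups was 0.2. As counting may not have used strand, intronic reads of KCNQ1 may be among the KCNQ1OT1 counts.

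Of 5 genes listed with KCNQ1OT1, 4 had an unadjusted p under 0.05, all higher in sh-IGF2BP3 (13.6% of all tested genes). CDKN1C had 2.77, 2.69 and 1.99 CPM in the sh-NC libraries, against 7.43, 5.36 and 2.33 CPM in the sh-IGF2BP3 libraries 1, 2 and 3, with a log2 fold change of 1.02 and an adjusted p of 0.154. It was highest in sh-IGF2BP3 1, as was SLC22A18, a transporter gene, at 19.5 CPM against 7.28 to 11.6 CPM elsewhere. PHLDA2, an imprinted growth regulator (0.94, adjusted p 0.128), SLC22A18 (0.67, adjusted p 0.211) and EHMT2, a histone H3 methyltransferase (0.55, adjusted p 0.154), were the other 3. EHMT2 lies on chromosome 6 and is no neighbour, yet was also highest in sh-IGF2BP3 1, at 161 CPM against 77.5 to 143 CPM elsewhere. PHLDA2, a neighbour, was highest in sh-IGF2BP3 2, at 90.5 CPM against 87.2 CPM in sh-IGF2BP3 1. Without sh-NC 1, PHLDA2 (1.49, adjusted p 0.00195) and EHMT2 (0.77, adjusted p 0.018) met the thresholds, among the 1739 of 17379 genes called higher there. Without sh-NC 3 these had 0.64 (adjusted p 0.4) and 0.40 (adjusted p 0.486), and without sh-IGF2BP3 1 CDKN1C had 0.63 (adjusted p 0.438) and SLC22A18 0.27 (adjusted p 0.62). With the GC content and length trend removed none of the 5 had an unadjusted p under 0.05, and CDKN1C had a log2 fold change of 0.37. These 4 genes have a GC content of 60.9% to 63.8%.

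H19 (ENSG00000130600, chr11:1995166-2001470, minus strand) is a maternally expressed imprinted lncRNA and the host of miR-675. It had 22, 1 and 7 counts in sh-NC 1, 2 and 3 and 1, 1 and 11 counts in sh-IGF2BP3 1, 2 and 3. With 43 counts over the 6 libraries it did not pass the filter, and both groups held a library with 1 count. IGF2, its reciprocally imprinted neighbour and the growth factor after which the IGF2BP family is named, had 4.91, 5.87 and 8.23 CPM in the sh-NC libraries, against 15, 8.83 and 6.19 CPM in the sh-IGF2BP3 libraries. The groups overlapped, with a log2 fold change of 0.66 and an edgeR adjusted p of 0.252, and sh-IGF2BP3 1 was again the highest. Without sh-IGF2BP3 1 it was 0.25, and with the trend removed 0.28 (adjusted p 0.723).

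PVT1 (ENSG00000249859) lies at chr8:127794526-128187101, plus strand, and 25 of its transcripts are annotated in GENCODE 29. It had 62, 50.2 and 45.4 CPM in the sh-NC libraries 1, 2 and 3, against 52.3, 54.2 and 59.9 CPM in the sh-IGF2BP3 libraries 1, 2 and 3. All 3 sh-IGF2BP3 values fell within the range of the sh-NC libraries. The means were 52.5 ± 8.52 and 55.5 ± 3.92 CPM (SD, n = 3 each), with a log2 fold change of 0.079 ± 0.187 (SE) and an edgeR adjusted p of 0.827. It was the most even of the 8 across libraries, from 1.95 to 2.34 FPKM.

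**Figure D3:**
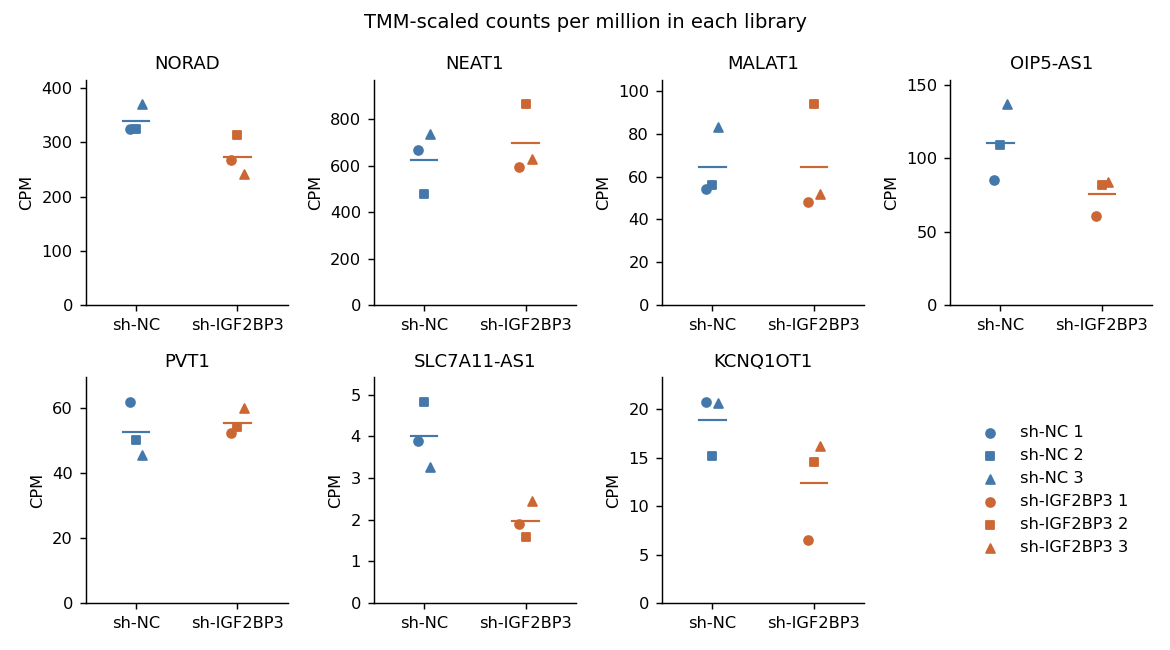
CPM (linear axes from 0) of the 7 tested lncRNAs in each library, with a line at the mean of each group. NORAD, OIP5-AS1 and SLC7A11-AS1 lie lower in all 3 sh-IGF2BP3 libraries, and the other 4 overlap between groups.

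SLC7A11-AS1 (ENSG00000250033) had the largest fold change of the 7. It had 69, 117 and 64 counts in sh-NC 1, 2 and 3 and 33, 24 and 43 counts in sh-IGF2BP3 1, 2 and 3. In CPM these were 3.89, 4.83 and 3.27 against 1.89, 1.57 and 2.44. The groups did not overlap, and the means were 4 ± 0.787 and 1.97 ± 0.442 CPM (SD, n = 3 each), a ratio of 0.492, with an exact permutation p of 0.1. The log2 fold change was −1.02 ± 0.341 (SE), with an unadjusted p of 0.00865 and an edgeR adjusted p of 0.126. Across the other settings the adjusted p ran from 0.058 to 0.728, so that it met the thresholds in none of them. With the GC content and length trend removed the log2 fold change was −0.75, with an unadjusted p of 0.0309 and an adjusted p of 0.454, and the groups still did not overlap.

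**Figure D4:**
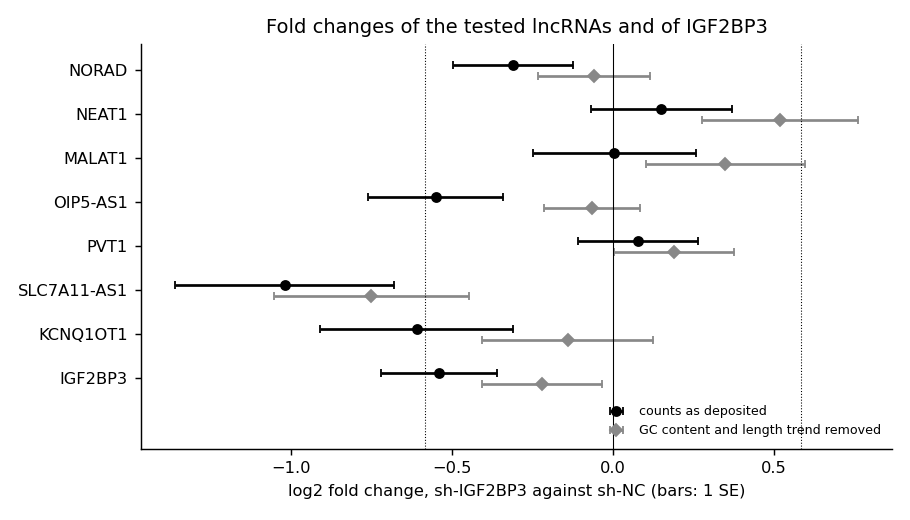
Log2 fold changes (sh-IGF2BP3 against sh-NC) with bars of 1 SE for the 7 tested lncRNAs and IGF2BP3, black from the counts as deposited and grey with the GC content and length trend removed. Dotted lines mark a fold change of 1.5 in either direction. SLC7A11-AS1 keeps a value of −0.75 after removal, while OIP5-AS1 moves from −0.55 to −0.065 and NEAT1 from 0.15 to 0.52.

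SLC7A11-AS1 lies at chr4:138057464-138178177, plus strand, tail to tail with SLC7A11 at chr4:138164097-138242349, minus strand. Its GENCODE 29 exons total 6161 bases, of which 865 overlap exons of SLC7A11. Its longest transcript has 7 exons and 4654 bases, and its end is shown because it lies inside SLC7A11. This end also holds a match to the seed of miR-98-5p, the microRNA that the study examined upstream of IGF2BP3. The seed in the mature microRNA (RefSeq), the seed match CTACCTC at the site and, at the end, the poly(A) signal ATTAAA with an overlapping AATAAA are in capitals.
hsa-miR-98-5p: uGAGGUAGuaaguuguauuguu
SLC7A11-AS1 site, chr4:138178114-138178135, plus strand: ggataataattttcCTACCTCa
SLC7A11-AS1 end, chr4:138178128-138178177, plus strand: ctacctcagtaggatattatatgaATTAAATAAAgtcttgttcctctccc
The site matched the reverse complement of the microRNA at 12 of 22 bases with no gap, the seed included. Of 3583 tested transcripts of 0.8 to 1.2 times its length, 27.9% held the letters CTACCTC on the transcript strand. Among the other lncRNAs here, NEAT1 held 3 copies, OIP5-AS1 1 and KCNQ1OT1 8. A signal AATAAA or ATTAAA lay in the last 50 bases of 69.1% of the tested transcripts, and of 50.5% of those from lncRNA rows. No microRNA level was measured in these libraries.

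SLC7A11 had 187, 236 and 189 CPM in the sh-NC libraries 1, 2 and 3, against 104, 98.6 and 104 CPM in the sh-IGF2BP3 libraries 1, 2 and 3. Every sh-IGF2BP3 library was lower, with a log2 fold change of −1.0 ± 0.183 (SE) and an edgeR adjusted p of 0.103. Without sh-NC 1 that p was 0.00273, without sh-IGF2BP3 3 it was 0.0446 and with DESeq2 0.000759. It was 0.38 without sh-NC 2, 0.302 without sh-IGF2BP3 1, 0.426 without sh-IGF2BP3 2 and 0.415 with the GC content and length trend removed, where the log2 fold change was −0.57. The antisense RNA took 2.04%, 2.01% and 1.7% of the counts of the pair in sh-NC and 1.78%, 1.57% and 2.3% in sh-IGF2BP3. The means were 1.92% ± 0.186 and 1.88% ± 0.375 (SD, n = 3 each), and the exact permutation p was 1. The lowest Wilson bound in any library was 1.05% and the highest 3.08%. With strand use unknown, reads of SLC7A11 in the 865 shared exon bases may be among the counts of SLC7A11-AS1, and their part in its fold change was not tested.

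**Figure D5:**
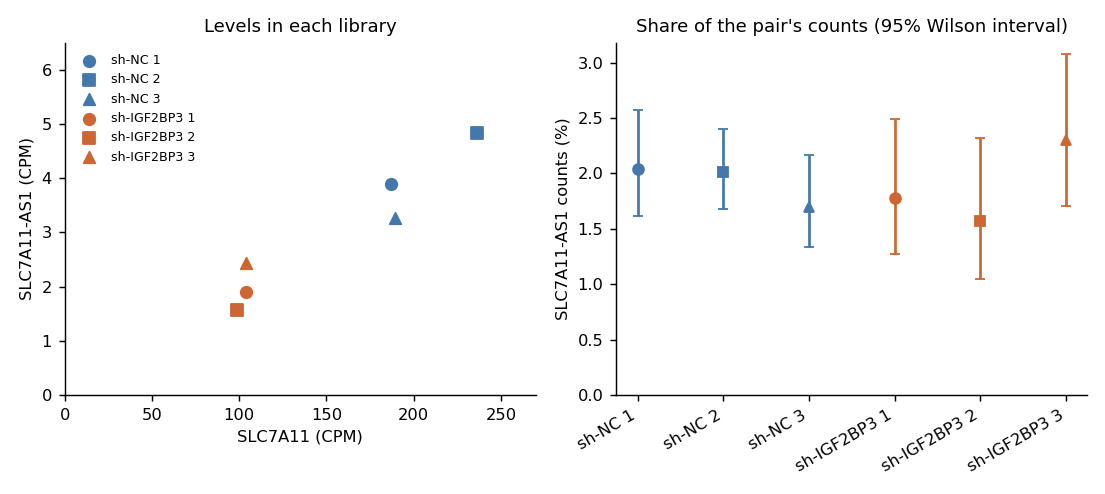
Left, CPM of SLC7A11-AS1 against CPM of SLC7A11 in each library. Right, the share of the counts of both genes that fell on SLC7A11-AS1, in percent with 95% Wilson intervals, from 1.57% to 2.3%: both genes lie lower in the 3 sh-IGF2BP3 libraries, while the shares of the groups overlap.

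The genes most like each lncRNA over the 6 libraries were found by Pearson's r of log2 CPM, given as a description of libraries that share depth and base composition trends. For SLC7A11-AS1 they were ZNF766 (r = 0.988) and CCDC171 (0.987), and 47 genes had an r above 0.95. For OIP5-AS1 they were APPBP2 (0.997) and PGAP1 (0.996), among 302 such genes, and for KCNQ1OT1 ZNF451-AS1 (0.997) and TMEM41B (0.995), among 187. TMEM41B had 44.5 CPM in sh-IGF2BP3 1 and 67 to 85.7 CPM in the other 5 libraries, the same low library as KCNQ1OT1. For PVT1 they were ENSG00000271781 (0.996) and SUPT6H (0.994), among 95. Fewer genes followed NORAD (20, led by ENSG00000285184 at 0.99 and GTF2IP23 at 0.987), MALAT1 (7, led by ENSG00000249863 at 0.994 and ENSG00000259347 at 0.977) and NEAT1 (6, led by ZNF740 at 0.99 and LINC00926 at 0.978).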

How the data were processed

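RNA of HCT116 cells was sequenced after a TruSeq RNA library preparation, with 3 sh-NC and 3 sh-IGF2BP3 libraries. The authors deposited whole-number counts per gene without normalization, and FPKM values that are these counts divided by each library's total and 1 length per gene. The submitters' processing notes name CASAVA and GRCh38. The aligner, the counter and the use of strand are not given in the sources used here.

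The main test, in R 4.3.3, was that of edgeR 4.0.16 (filterByExpr, TMM, quasi-likelihood test, Benjamini-Hochberg adjustment over 16753 genes), with limma 3.58.1 and DESeq2 1.42.0 as alternatives. The thresholds, a fold change of 1.5 and an adjusted p of 0.05, are those of the study's methods. Single values were compared by two-sided exact permutation tests over the 6 libraries. The fits were tested on simulated data. Each library's trend with GC content and length was removed with splines of 5 degrees of freedom. GC content was known from GENCODE 29 for 96.9% of tested genes, and the others were left uncorrected. Counting intervals are 95% Wilson intervals. Sequences came from GENCODE 29 transcripts (8 of 8 lncRNAs) and RefSeq (promoters for 4 of 8), with coordinates on GRCh38. The closest replicates, sh-NC 2 and 3, differed by more than counting noise (chi-square per degree of freedom 19).

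The members and lists were chosen with earlier results of these data known. Of 40 other lncRNAs listed, 37 were matched by symbol. Named were the 8 lncRNAs, IGF2BP3, the neighbours SLC7A11, OIP5, KCNQ1, CDKN1C and IGF2, the partners NONO, SFPQ, PSPC1 and PUM2, up to 8 further partners and up to 8 other lncRNAs with the smallest unadjusted p under 0.05, the 3 other lncRNAs highest in FPKM, and 2 genes per lncRNA by Pearson's r. CRNDE, TINCR, TARDBP, NUDT21, HNRNPC, KHDRBS1, RBMX, EPCAM and the other cell markers were named after their values were seen. Some partner genes are not reported here and were left out of the counts of partners.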

Additional observations from a re-analysis of the deposited data

How the results depend on the processing

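Across all genes, edgeR called 0, as did upper-quartile normalization, the replicate block and removal of the GC content and length trend. RLE normalization called 1 gene, at least 10 counts in every library 1, limma on log2(FPKM + 1) 1, DESeq2 696 (560 higher, 136 lower) and no filter on low counts 837 (687 higher, 150 lower). Leaving out 1 library gave 0 to 2724 calls, with 2724 without sh-NC 1 (1739 higher, 985 lower, 15.7% of 17379 genes), 228 without sh-IGF2BP3 3, 5 without sh-NC 3 and 2 without sh-NC 2.

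Of the lncRNAs, OIP5-AS1 alone was called, without sh-NC 1, a range of 0 to 1 over the libraries left out, and the replicate block called 0. The study describes 3 pairs of control and knockdown cells. Same-numbered libraries had correlations of −0.284, −0.186 and −0.043, so the replicate numbers showed no pairing. The count with an unadjusted p under 0.05, 2, was examined in the same settings after the values were seen. It was 1 to 3 when a library was left out: KCNQ1OT1 as well without sh-IGF2BP3 3, SLC7A11-AS1 alone when sh-NC 3 or sh-IGF2BP3 1 was left out, and KCNQ1OT1 alone without sh-NC 2. It was 3 with upper-quartile normalization and with no filter on low counts, KCNQ1OT1 being added in both. With limma it was 2, NORAD and OIP5-AS1 with the filter, and NORAD and SLC7A11-AS1 without it. It was 1 with the trend removed and 0 with the trend removed and the block. The share of all tested genes at that p is given only for the main fit and with the trend removed. The counts in the other settings thus have no background beside them. The count without overlap went from 3 to 1 with the trend removed.

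Of 30 other lncRNAs, 1 was called by DESeq2 (TUG1), 1 with no filter (RMRP) and 0 to 4 with a library left out, the 4 without sh-NC 1 being CRNDE, FTX, TUG1 and UCA1. Of 31 partner genes, 1 was called by DESeq2 (SLC7A11), beside 5.23% of all genes, 3 with no filter (OIP5, PHLDA2 and SLC7A11), beside 2.30%, and 0 to 7 with a library left out: 7 without sh-NC 1, beside 15.7%, and 2 without sh-IGF2BP3 3, beside 1.31%.

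Among the genes named by rule, log2 fold changes changed sign in these cases, none of them past the thresholds. Some other listed genes also changed sign. MALAT1 had −0.065 (upper quartile), −0.014 (10 counts), −0.034 (replicate block), −0.094, −0.11 and −0.094 (limma with 1, 0.1 and no filter), −0.10 without sh-NC 1, −0.081 without sh-NC 2 and −0.36 without sh-IGF2BP3 2, in a range of −0.36 to 0.21 over the libraries left out. NEAT1 had −0.008 when sh-NC 2 and −0.026 when sh-IGF2BP3 2 was left out (highest with a library left out 0.26). PVT1 had −0.036 without sh-NC 3 (highest with a library left out 0.22). KCNQ1 had −0.074 without sh-IGF2BP3 1 (highest with a library left out 0.43) and −0.28 with the trend removed, with or without the block. SFPQ had −0.053 without sh-NC 3 (highest with a library left out 0.21). The causes were not tested. With a mean FPKM under 1, KCNQ1OT1 and SLC7A11-AS1 have no limma value with the filter. On log2(FPKM + 1) with no filter they had −0.10 and −0.34 (−0.61 and −1.02 by edgeR), a scale that understates changes of low genes. No fitted value is reported for H19. H19 and SLC7A11-AS1 had the fewest counts, 43 and 350 in all, and the part of depth in their values was not tested.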

Other observations

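Other well-known lncRNAs showed values on both sides. Of 30 tested, 26 carried the lncRNA biotype in the deposited annotation, while TUG1 and TINCR were listed as protein coding, RMRP as a ribozyme and BCYRN1 as an scRNA. Of the 30, 5 were lower and 3 higher in sh-IGF2BP3 at an unadjusted p under 0.05, beside 8.54% and 13.6% of all tested genes, and edgeR called 0 of them. With the GC content and length trend removed, 2 were lower and 5 higher, beside 3.59% and 6.86%, and their median log2 fold change went from −0.14 to 0.071. TUG1, a lncRNA found in nucleus and cytoplasm, had 113, 135 and 138 CPM in the sh-NC libraries, against 72.4, 72.6 and 90.3 CPM in the sh-IGF2BP3 libraries, so that the groups did not overlap. Its log2 fold change was −0.71 ± 0.185 (SE) with an edgeR adjusted p of 0.103, and −0.42 with the GC content and length trend removed. UCA1, a lncRNA first described in bladder cancer and at 23.6 FPKM the highest of the 30, had 93.7, 102 and 154 CPM in the sh-NC libraries, against 93.5, 64.2 and 74.9 CPM in the sh-IGF2BP3 libraries. Its groups all but met, with a log2 fold change of −0.59 and an adjusted p of 0.149, and of −0.54 with the trend removed. FGD5-AS1, at 16.8 FPKM, had −0.45 (adjusted p 0.182), FTX −0.62 (0.157) and JPX −0.65 (0.198). With the trend removed these were −0.23, −0.057 and −0.16, and the groups of each overlapped. Without sh-NC 1, where 5.67% of all tested genes were called lower, the adjusted p was 0.0105 for TUG1, 0.031 for UCA1 and 0.0339 for FTX. Without sh-NC 3 it was 0.314, 0.513 and 0.497, with log2 fold changes of −0.68, −0.36 and −0.43. FTX and JPX come from overlapping stretches of chromosome X and may share reads.

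The 3 that were higher were RMRP, BCYRN1 and MIR22HG. RMRP, the RNA of RNase MRP, had 0.339 to 0.613 CPM in sh-NC and 0.8, 3.27 and 0.852 CPM in sh-IGF2BP3 1, 2 and 3, so that its log2 fold change of 1.69 (adjusted p 0.13) moves mostly with sh-IGF2BP3 2, without which it was 0.73. BCYRN1, with 7 to 32 counts per library and overlapping groups, had 1.08 (adjusted p 0.209). MIR22HG, the host of miR-22, had 0.58 (adjusted p 0.206) with 6.8 to 9.82 CPM in sh-NC and 9.81 to 12.8 CPM in sh-IGF2BP3. With the GC content and length trend removed, RMRP had 1.21, BCYRN1 1.02 and MIR22HG 0.54. The unadjusted edgeR p values were then 0.0642, 0.0558 and 0.0378, and the groups of each overlapped.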
